A study of Mus musculus with 2 samples.

Results

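The 9 genes described here code for the signalling chains of the T cell receptor (Cd3d, Cd3e, Cd3g and Cd247), its coreceptors (Cd4 and Cd8b1), the first kinases it engages (Lck and Zap70) and the scaffold they phosphorylate (Lat). They were found by symbol in the gene name column of the scanner output, which gave 12 probes out of 39429 on the array, and 9 out of 30165 named genes. Their transcripts were measured in mouse cultured mononuclear cells of the bone marrow, which include progenitors and mature immune cells, on 1 array from an untreated culture (the control) and 1 array from a culture given ninjin'yoeito (NYT), a herbal medicine. The mice were of strain C57/Bl6J (C57BL/6 in the protocol), aged 2 to 4 months, the femurs were flushed with medium that held 2% serum, and both cultures were collected at day 11. The sources used here do not give the dose, the culture supplements, the number of mice or whether both cultures came from the same mice. Different RNA kits are named in the extraction protocol and in the study design. Both arrays lay on 1 slide.

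The T cell receptor recognises antigen through its variable chains, which have almost no cytoplasmic part of their own. The signal is passed on by the CD3 gamma, delta and epsilon chains and by the zeta chain that Cd247 encodes. These carry immunoreceptor tyrosine-based activation motifs (ITAMs), pairs of tyrosines that Lck phosphorylates once CD4 or CD8 has brought it to the receptor. ZAP-70 then binds the phosphorylated motifs and phosphorylates LAT, which assembles the downstream enzymes. In bone marrow these genes are known mainly from mature recirculating T cells, and several of them are shared with natural killer (NK) cells, mast cells, platelets or dendritic cells.

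Each group had 1 array, so no test could be made, the spread between cultures is unknown, and every value below compares these 2 arrays only. A difference is the log2 intensity on the NYT array minus that on the control array, each taken relative to its own array's 75th percentile. That percentile was an intensity of 728 on the NYT array and 1475 on the control array, so the scaling adds 1.02 to every difference. Over the 16996 genes measured on both arrays the median difference was 0.29, or -0.73 without scaling. A probe counts as measured when the scanner software flagged it well above background, and a gene flagged on the control array alone is given a bound. The only error used here was spot noise. Among 247 probes printed several times, the median SD of a difference between single spots was 0.0532 on the log2 scale. It was 0.147 for the 48 of them that were dim on the NYT array (log2 intensity under 7), which is where several of these genes lay.

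Probes for 2 of the genes lie on the ITAM code itself. They are shown because they read the stretch of the messenger RNA that gives the receptor chains their signalling function, and because they read lower on the NYT array. The capitals mark the codons of the pair of tyrosines, with 7 codons between the units that each tyrosine opens.
Cd3d probe: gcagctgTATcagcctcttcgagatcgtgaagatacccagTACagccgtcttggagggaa
Cd247 probe: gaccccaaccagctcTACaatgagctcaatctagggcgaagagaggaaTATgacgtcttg
The pattern searched was a tyrosine codon (TAT or TAC), any 6 bases and a leucine or isoleucine codon, repeated after 6 to 8 codons in a frame with no stop codon. Of the 39429 probes on the array 30 (0.0761%) held it on the printed strand, and 2 of the 12 member probes did. The Cd3d probe maps to chr9:44794171-44794402 and the Cd247 probe to chr1:167786567-167787585, both on the plus strand of mm9. These 60 bases are spread over 232 and 1019 bases of the genome, so each probe joins separate exons.

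Cd3g, Cd3d and Cd3e are neighbours on mouse chromosome 9, and they did not move by the same amount. Their promoter windows are shown to compare these neighbours, from 250 bases before to 50 bases after each annotated start (RefSeq, build GRCm38.p6). The windows of Cd3g and Cd3d lie 854 bases apart and face away from each other, and that of Cd3e lies 27726 bases beyond Cd3d. The capitals mark CAGGTG or its reverse complement, a form of the E-box bound by E proteins, which act in lymphocyte development.
Cd3g promoter, chr9:44980382-44980681, minus strand: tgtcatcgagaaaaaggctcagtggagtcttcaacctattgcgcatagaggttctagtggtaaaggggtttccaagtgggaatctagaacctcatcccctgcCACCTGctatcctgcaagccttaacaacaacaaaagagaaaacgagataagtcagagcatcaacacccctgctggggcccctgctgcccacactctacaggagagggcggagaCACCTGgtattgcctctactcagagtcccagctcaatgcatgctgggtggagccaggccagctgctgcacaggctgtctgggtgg
Cd3d promoter, chr9:44981536-44981835, plus strand: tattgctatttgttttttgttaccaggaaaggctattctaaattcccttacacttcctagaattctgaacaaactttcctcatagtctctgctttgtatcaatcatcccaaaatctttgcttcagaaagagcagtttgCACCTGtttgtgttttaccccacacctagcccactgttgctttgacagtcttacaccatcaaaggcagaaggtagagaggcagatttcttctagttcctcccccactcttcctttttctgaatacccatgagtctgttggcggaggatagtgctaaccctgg
Cd3e promoter, chr9:45009562-45009861, minus strand: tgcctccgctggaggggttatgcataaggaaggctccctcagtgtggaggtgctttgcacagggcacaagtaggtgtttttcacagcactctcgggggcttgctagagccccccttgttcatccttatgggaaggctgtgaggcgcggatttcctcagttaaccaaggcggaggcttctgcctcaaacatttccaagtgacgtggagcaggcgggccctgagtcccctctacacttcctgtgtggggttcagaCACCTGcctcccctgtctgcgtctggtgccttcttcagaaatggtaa
The motif occurred in 8 of the 10 promoter windows listed for 7 of the 9 genes, and in 20.2% of all 32851 windows of that length. All 3 windows printed here held it, with 2 matches for Cd3g and 1 each for Cd3d and Cd3e, although the differences of these genes ranged from -4.93 to -0.72. The ETS form AGGAAG was in 8 of the 10 windows against 35.4% of all windows, with 2 matches each for Cd3d and Cd3e. The RUNX form TGTGGT was in 3 (16.8% of all windows), the TCF-1 and LEF-1 form CTTTGA in 3 (16.0%) and the GATA form AGATAA in 1 (11.2%). Both strands were read, and 13 motifs were searched in all. The others were the ETS core GGAA, which lies within AGGAAG, in 9 windows (96.0% of all windows), and any E-box, CANNTG, which takes in CAGGTG, in 10 (72.3%). Another E-box, CAGCTG, was in 1 window (16.3%). The Ikaros form TGGGAA was in 5 (25.6%), a second TCF-1 form, CTTTGT, in 3 (18.7%), and the TATA box TATAAA in none (13.6%). The cyclic AMP element TGACGTCA was in 1 (1.79%) and the SP1 form CCGCCC in 2 (35.7%). A match describes the letters only.

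All 12 member probes read lower on the NYT array than on the control array after scaling. All 9 genes were well above background on the control array, and 7 of them also on the NYT array, while Cd247 and Cd8b1 were not (9.84% of the 18851 genes well above background on the control array were lost from detection in this way). At a 2-fold threshold 7 of the 9 genes were lower and none was higher, where 13.8% of the 18851 genes well above background on the control array were at least 2-fold lower by measurement or bound. At an 8-fold threshold 4 of the 9 were lower (Cd3d, Cd3g, Zap70 and Cd8b1), against 3.62% of the same genes. The median over the 7 genes measured on both arrays was -1.13, against 0.29 for all measured genes. The genes were chosen with earlier results of these arrays known, so their number past the threshold is a description of them. In bulk RNA, fewer cells of a type and less RNA per cell cannot be told apart.

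**Figure D1:**
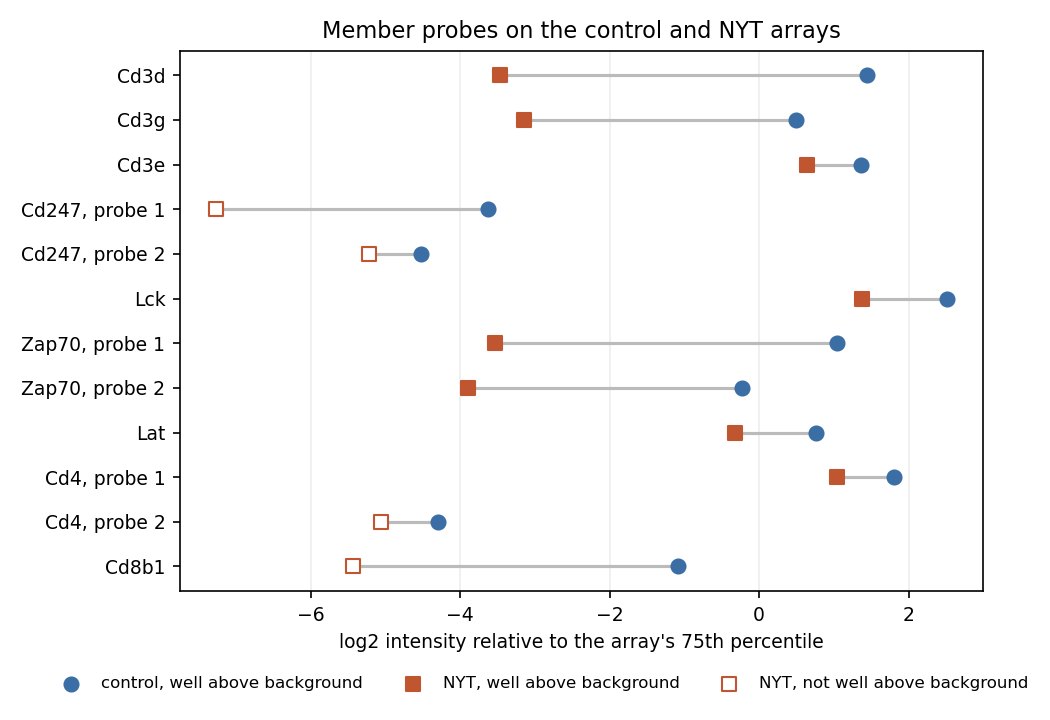
Each row is 1 probe, with its log2 intensity relative to the 75th percentile of its array on the x axis, circles for the control array and squares for the NYT array, filled where the probe was well above background. The NYT square lies left of the control circle in all 12 rows, with a difference of -4.93 for Cd3d and -0.72 for Cd3e. Positions in different rows come from different probes and are not comparable.

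Among the receptor chains, Cd3d and Cd3g were far lower on the NYT array and Cd3e was not. The Cd3d probe read an intensity of 4043 on the control and 65.7 on the NYT array, a 30.4-fold lower value after scaling (log2 difference -4.93). Of the 16996 measured genes 60 (0.353%) had a difference as low or lower. The Cd3g probe (chr9:44777868-44777927, minus strand, mm9) read 2091 and 82.6, which is 12.5-fold lower (-3.64). Both probes were flagged well above background on either array. The Cd3e probe (chr9:44806828-44806887, minus strand, mm9) read 3790 and 1137, 1.65-fold lower (-0.72). That places Cd3e under the 2-fold threshold, at a difference that 14.5% of measured genes reached or passed. CD3 epsilon pairs with either delta or gamma in the assembled receptor, and here the difference of Cd3d minus that of Cd3e was -4.21 (18.5-fold) and that of Cd3g minus Cd3e was -2.93 (7.6-fold). Both gaps are larger than the spot noise of dim probes, 0.147.

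Cd247, the zeta chain with the most ITAMs of the complex, gave a dim signal on either array. The probe on its ITAM code read 119 on the control and 4.76 on the NYT array, where it was not well above background. Its bound was at least 3.07-fold lower. A further probe (chr1:167800324-167800383, plus strand, mm9), listed in the files under another RefSeq transcript, read 63.7 and 19.5, a difference of 1.61-fold, and it too was not well above background on the NYT array. The 2 probes thus differ in whether Cd247 passes the 2-fold threshold. With the more lenient detection flag of the scanner software both probes counted as measured on both arrays. The ITAM probe then gave -3.63 (12.4-fold lower), but the rule for several probes let the further probe stand for the gene, at -0.69, under the threshold. With normexp background correction its bound shrank to -0.27.

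The coreceptors also differed from each other. Cd4, which binds MHC class II and marks helper T cells but is also found on dendritic cells and macrophages, read 5162 on the control and 1502 on the NYT array by its brighter probe (chr6:124814711-124814770, minus strand, mm9). That is 1.70-fold lower (-0.76), under the threshold. The other Cd4 probe (chr6:124817706-124817765, minus strand, mm9) was printed 10 times, of which 9 spots were kept on each array. Its spots ran from 63.2 through a median of 76.8 to 80.8 (control) and from 18.2 through 20.2 to 31.8 (NYT). These intensities did not overlap, but after scaling the control spots ran from -4.55 to -4.19 and the NYT spots from -5.32 to -4.52, so 1 of the 9 NYT spots lay above the lowest control spot. The SD was 0.115 and 0.268 on the log2 scale. After scaling the mean difference of this probe was also -0.76, with only 4 of its 9 NYT spots well above background. Cd8b1, the CD8 beta chain found on cytotoxic T cells, read 700 on the control and 16.8 on the NYT array, below the well-above-background limit (chr6:71287231-71287290, plus strand, mm9). Its bound was at least 18.0-fold lower.

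The kinases differed from each other as well. Lck, the Src-family kinase held by CD4 and CD8, read 8408 on the control and 1902 on the NYT array (chr4:129225614-129225673, minus strand, mm9). It was 2.18-fold lower (-1.13), just past the threshold, and 9.89% of measured genes were as low or lower. Zap70, the kinase that docks on phosphorylated ITAMs, read 3043 and 62.9 by its brighter probe (chr1:36839542-36839601, plus strand, mm9), which is 23.9-fold lower (-4.58), a difference reached or passed by 0.588% of measured genes. Its other probe, which lies upstream (chr1:36839315-36839374, plus strand, mm9), read 1261 and 49.2, or 12.7-fold lower (-3.66). Both Zap70 probes were well above background on both arrays and both passed 8-fold, so the gene's call does not rest on a single probe. The difference of Zap70 minus that of Lck was -3.45 (10.9-fold).

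Lat, the membrane scaffold that ZAP-70 phosphorylates, read 2495 on the control and 585 on the NYT array (chr7:133507719-133507778, minus strand, mm9). It was 2.11-fold lower (-1.08), close to Lck and to the 2-fold threshold, and 10.3% of measured genes were as low or lower. The 4 genes with the smaller differences, Cd3e, Cd4, Lat and Lck, lay between -0.72 and -1.13. Neighbours in this order, Cd3e with Cd4 and Lat with Lck, differed by 0.05 in either case, which is within the spot noise of 0.0532. Cd3g, Zap70 and Cd3d lay between -3.64 and -4.93.

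**Figure D2:**
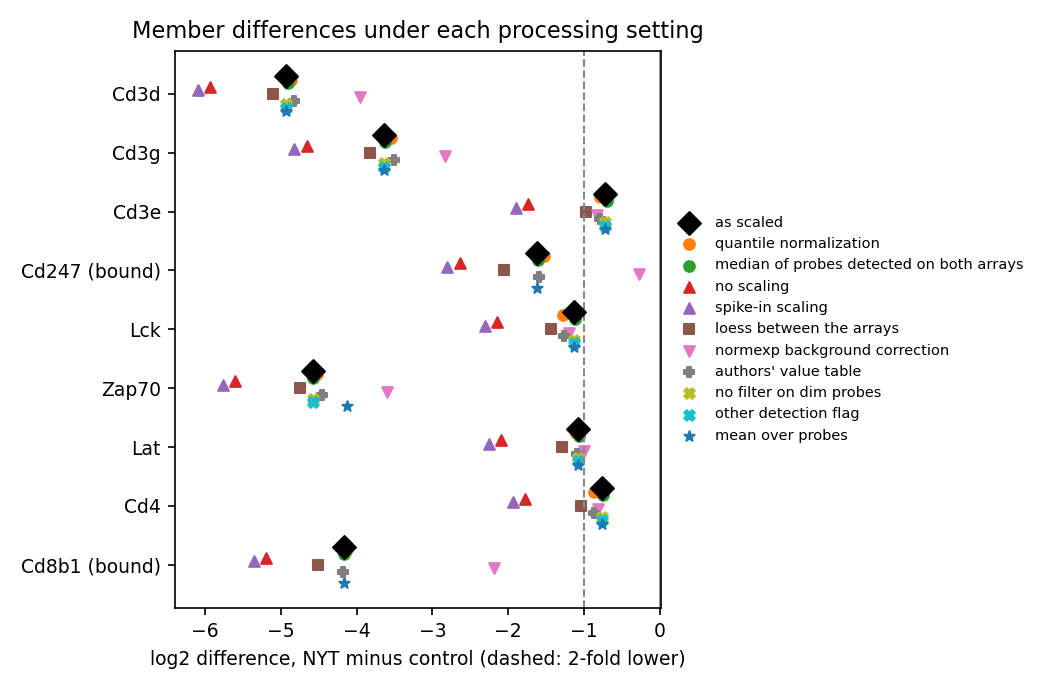
Points give the log2 difference (NYT minus control) of each gene under the processing as reported (black diamonds) and 10 alternatives, with the 2-fold threshold as a dashed line; Cd247 and Cd8b1 are shown as bounds, and not where a setting counts them as measured on both arrays. Cd3d stayed between -6.10 and -3.95 and Zap70 between -5.76 and -3.60, whereas Cd3e ranged from -1.90 to -0.70 across the threshold.

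Whether Cd3e and Cd4 passed 2-fold changed with the scaling, and none of the 11 alternatives turned a difference positive. Without scaling Cd3e, Cd4, Lat and Lck differed by -1.74, -1.78, -2.09 and -2.14, so 9 of the 9 genes were then at least 2-fold lower, but so were 40.0% of the genes well above background on the control array. Scaled to spike-in RNA they stood at -1.90, -1.94, -2.25 and -2.31, and after loess Cd4 reached -1.04 and Cd3e -0.97. Cd3d, Cd3g and Zap70 were the least negative with normexp background correction, at -3.95, -2.83 and -3.60, and Cd8b1 had a bound of -2.18 there.

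Further along the receptor pathway, enzymes and adaptors were read from a longer list. Of 50 pathway genes on the array 22 were at least 2-fold lower and none higher, by the probe that stands for each gene. Of the 19404 genes well above background on either array 13.4% were lower and 11.3% higher. The list median was -0.64 over 42 genes measured on both arrays, against 0.29 for all genes. Skap1, an adaptor that links the receptor to integrins, was 37.0-fold lower. The T cell protein kinase C Prkcq was 13.7-fold lower and Rasgrp1, which activates Ras, 9.32-fold (-3.22, or -2.49 by another probe). Grap2, an adaptor that joins LAT to SLP-76, was 7.66-fold lower (-2.94, or -2.22 by another probe). Of the genes detected on the control array alone, Txk, a Tec-family kinase, was at least 39.2-fold lower, Cd8a, the partner of Cd8b1, at least 12.9-fold, the adaptor Sh2d1a at least 10.2-fold and Ubash3a, a negative regulator, at least 3.82-fold. Sla2 was 16.9-fold lower by its brighter probe but differed by 0.08 by another, so its probes disagree. Probes of further genes, named after their values were seen, also disagreed on the 2-fold call. Itpr1 and Sh2d2a, at -1.01 and -1.31, gave 1.54 and -0.14 by another probe. Further probes of Wasf2 and Hras reached 1.38 and 1.11, past 2-fold higher, and 1 of Lcp2 gave -2.03. With the mean over probes 21 pathway genes were lower.

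The nearest partners of the member genes were also read, a choice made after their values were seen. Csk and Ptprc (CD45), which switch Lck off and on, differed by -0.75 and -0.95. Lcp2 (SLP-76) and Plcg1, which assemble on LAT, differed by -0.70 and -0.95, although another Lcp2 probe gave -2.03. Vav1, Grb2 and Nck1, adaptors and exchange factors of many cell types, stood at 0.32, 0.51 and -0.02. By the probe that stands for each gene none of these passed the 2-fold threshold. Positive differences under 1.02, here and below, turn negative without scaling.

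Relatives of the member genes that serve the receptors of other blood cells were read beside them. Of 14 such genes 2 were at least 2-fold lower (14.3%, near the 13.4% of all genes above background on either array), 1 was higher, and the median over the 13 measured ones was -0.13. Without scaling 9 of the 14 were lower and none higher, where 40.0% of the genes well above background on the control array were lower. Lat2, the LAT relative of B cells and myeloid cells, was 3.61-fold higher (1.85, or 0.83 without scaling) where Lat was 2.11-fold lower. Fcer1g, the ITAM chain of Fc receptors, stood at 0.58, while Lyn, Fcgr3 and Hcst stood at -0.73, -0.68 and -0.60. The lower genes were Fgr, a myeloid Src kinase, at -1.43, further down than Lck at -1.13, and Fcer1a, the IgE receptor chain of mast cells and basophils, at least 108-fold lower. Chosen after their values were seen, Syk, which does the work of ZAP-70 in B cells and myeloid cells, differed by -0.13 (0.60 by a dimmer probe), against -4.58 for Zap70. Tyrobp stood at 0.32, Btk at 0.08, and the B cell ITAM chains Cd79a and Cd79b at -0.28 and -0.50. Fyn, the Src kinase that overlaps with Lck in T cells, stood at -1.15.

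**Figure D3:**
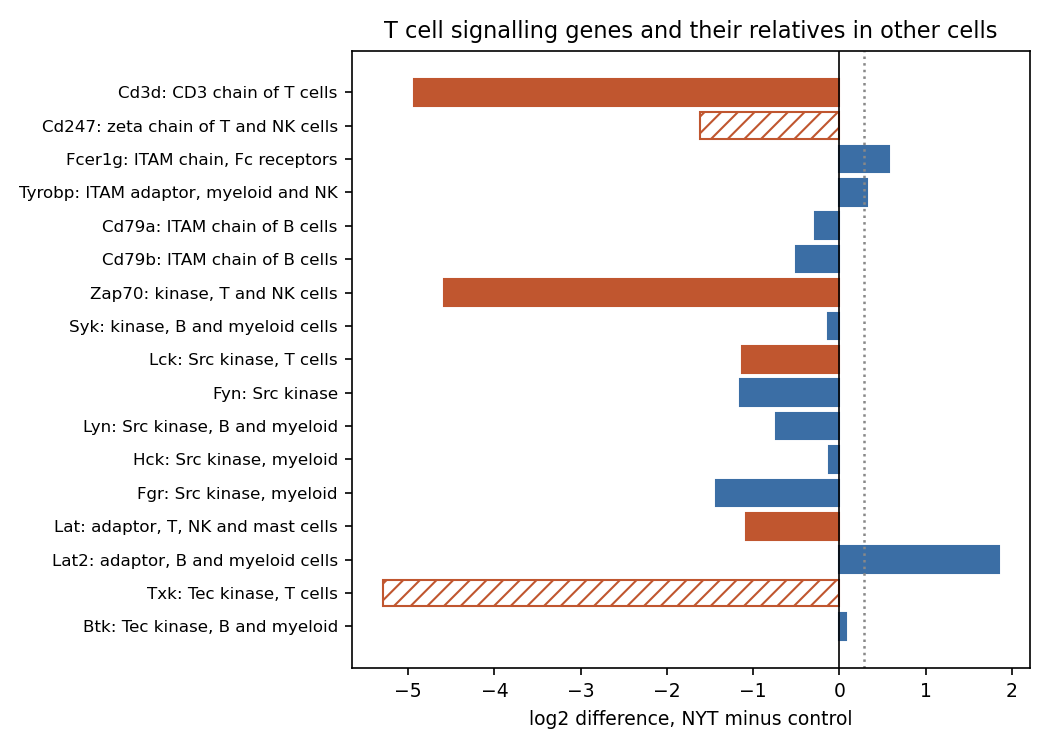
Bars give the log2 difference (NYT minus control) of selected signalling genes known mainly from T or NK cells (red) and of selected relatives (blue). Hatched bars are bounds, and the dotted line at 0.29 is the median of all measured genes. Not all genes are drawn: Cd3e (-0.72) and Cd3g (-3.64) are left out, as is the relative Fcer1a (bound -6.76). Fyn, which also acts in T cells, is drawn in blue. Zap70 stands at -4.58 and Syk at -0.13, and Lat at -1.08 and Lat2 at 1.85.

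Surface proteins of T cells were lower in most cases. Of 31 such genes above background on either array, 19 (61.3%) were at least 2-fold lower and 4 higher. Over all 19404 genes above background on either array, 13.4% were lower and 11.3% higher, so the higher ones were near that share. The list median was -1.67 over 28 measured genes. Ms4a4b, a membrane protein of T and NK cells, was 66.3-fold lower (-6.05, or -4.49 by another probe), and Il2rb, a chain of the interleukin-2 receptor, 42.9-fold. Cd96, a receptor of T and NK cells, was 40.6-fold lower. Thy1, a classical marker of mouse T cells, was 34.4-fold lower and the costimulator Icos 23.9-fold (-4.58, or -3.59 by another probe). Cd226, Cd27 and Tigit were detected on the control array alone, at least 19.2-fold, 7.63-fold and 2.04-fold lower. The 4 higher genes, named after their values were seen, were Cd28 (1.93), Il7r (1.45), Havcr2 (1.38) and Ly9 (1.11). Cd28, the main costimulatory receptor of T cells, thus differed in the opposite direction to Cd3d. Without scaling these 4 genes stood at 0.91, 0.43, 0.36 and 0.10, so that none of the list was 2-fold higher and 26 were lower. At that setting 40.0% of the genes well above background on the control array were lower.

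Transcription factors of the T lineage differed widely. Of 26 factors 13 were at least 2-fold lower and 1, Id2, was higher (1.16 as scaled and 0.14 without scaling, named after its value was seen). Over all 19404 genes above background on either array, 13.4% were lower and 11.3% higher. The median was -0.49 over 20 measured genes. Lef1 and Gata3, which direct T cell development, were 24.3-fold and 17.1-fold lower, Zbtb16 7.30-fold, Ets1 4.64-fold (-3.30 on the log2 scale by another probe), Klf2 3.70-fold and Satb1 2.93-fold. Tbx21, the T-bet factor of type 1 T cells and NK cells, was at least 31.4-fold lower, Tcf7 at least 22.2-fold, Bcl11b had a log2 bound of -3.58, and Tox and Eomes were at least 10.8-fold lower each. Among E proteins, which bind the motif marked in the CD3 promoters, Tcf3 and Tcf12 stood at -0.27 and 0.06 (-0.88 and 0.56 by further probes), also read after their values were seen.

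Probes for the antigen-binding chains were few and dim. Of 7 probes whose names mark T cell receptor chain genes, 4 were well above background for the control and 1 for NYT. Over all probes these shares were 62.2% on the control and 57.7% on the NYT array. Trgv1, a gamma chain variable segment, read 283 on the control and 16.6 on the NYT array, at least 7.28-fold lower. The Tcra probe was near background on both arrays, at 43.1 and 27.5, a difference of 0.37 as scaled. Probes for Trav3-3 read 50.6 against 12.4 (-1.01 as scaled) and 5.50 against 4.04 (0.57), and that for Tcrb-J 35.3 against 10.3 (-0.76). The Trav3-4 probe read 11.6 against 6.91 (0.27) and the Trgv2 probe 12.2 against 3.91 (-0.62). The dimmer Trav3-3 probe and those for Trav3-4 and Trgv2 were not well above background on either array. As scaled, the chain probes thus differed in both directions. Single variable or joining segments belong to families with similar copies and are used by few cells each, so these probes give no total for the receptor chains.

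**Figure D4:**
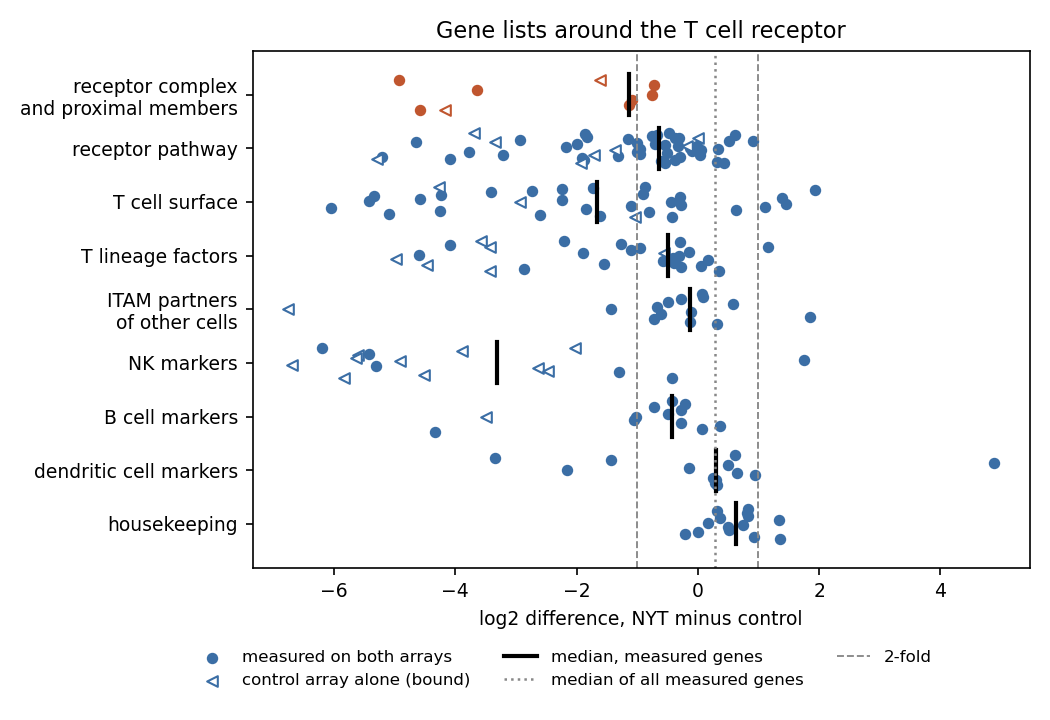
Each point is a gene, with its log2 difference (NYT minus control) on the x axis, open triangles for bounds of genes detected on the control array alone, a black bar at the median of the measured genes of each list, and dashed lines at 2-fold. The member genes have a median of -1.13 and the NK markers -3.31, while the dendritic cell markers lie at 0.30, next to the dotted median of all genes.

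Markers of other cells that carry some of these transcripts moved with them to different degrees. For comparison, 13.4% of the 19404 genes above background on either array were at least 2-fold lower and 11.3% higher. Of 16 NK cell markers, which belong to cells that also use Cd247, Zap70, Lck and Lat, 14 were at least 2-fold lower and 1, Klra8, was higher. Their summed intensity, in multiples of each array's 75th percentile, went from 52.2 (control) to 5.45 (NYT). Ccl5, 72.8-fold lower, made up most of the control sum, and Nkg7 and Klra8 made up most of the NYT sum. Nkg7 differed by -1.30 by the probe used in the sum but by -5.39 by another. Of the NK markers 10, among them the defining markers Ncr1, Klrb1c and Klrd1, were not well above background on the NYT array. Of 10 mast cell and basophil markers, cells that use Lat, 10 were lower, with sums of 53.7 and 1.32 and with Fcer1a, Ms4a2 and Mcpt4 not well above background on the NYT array. Of 9 platelet markers, cells that also hold Lat, 9 were lower, with sums of 309 and 33.7 and with none lost from detection. Of 10 markers of innate lymphoid cells above background on either array, 6 were lower and 1, Il7r, higher, with a median of -3.33 and sums of 16.4 and 17.6. Il7r made up most of the NYT sum, and without it the sums were 10.3 and 1.18. Of 13 dendritic cell markers 3 were lower (23.1%) and 1 higher, with sums of 112 and 132 and a median of 0.30. The lower ones were Ccr9 (-3.34), Itgax (-2.15) and Clec9a (-1.44), and the higher one was Cox6a2 (4.89). Siglech, which defines plasmacytoid dendritic cells and was the brightest of the list on both arrays, stood at 0.30. Of 12 B cell markers 4 were lower, with sums of 29.7 and 23.5, and of 12 macrophage and monocyte markers 6 were lower and 1, Cd68, higher, with a median of -0.97 and sums of 549 and 465. Among these the complement genes C1qa and C1qb were 37.1-fold and 13.4-fold lower, C1qc stood at -3.58, and the chemokine receptor Ccr2 was 20.1-fold lower. Some lists share genes: Il2rb is also among the NK markers, and Icos and Il7r are among those of innate lymphoid cells. The part of these cell types in the values of the member genes was not tested. Of 14 housekeeping genes 2 were at least 2-fold higher and none lower, and their median was 0.63, which became -0.39 when the arrays were left unscaled.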

How the data were processed

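Gene expression was measured in 2 cultures, 1 array each. The authors deposited spot intensity values from 1-colour Agilent arrays, after spatial and multiplicative detrending, per the file headers. The headers give version 10.7.1.1 of Feature Extraction and the submitters' processing notes 9.5.1.1. Their value table, also an intensity, had nearly the same distribution in both columns and was used as an alternative. Spots with outlier flags (258 and 165 of 43020) were left out and none was saturated. Log2 values were averaged over a probe's spots and scaled to the array's 75th percentile. Detection required the flag on over 50% of the spots. The brightest of the probes detected on both arrays stood for a gene. For a gene detected on 1 array, the bound compares it with the detection limit of the other array, or with its own signal there if higher. Member probes were taken by the name in the files. For other genes, names were updated through RefSeq tables of GRCm38.p6 (26761 probes by accession, 3814 by symbol, 639 by synonym, 8215 unchanged). Probe coordinates are those of the files, on mm9.

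The design allows no test. Calls were by size, at 2-fold, and their counting was tested on simulated data. The members, the 13 gene lists and the 11 alternatives were chosen with earlier results of these data known. Named genes were all members and, per list, up to 6 measured genes with the largest difference and up to 4 with the largest bound; exceptions are stated, and some named by this rule are not reported here. Normexp correction (offset 50) and loess used limma 3.58.1 in R 4.3.3. The number of arrays limits the precision.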

Additional observations from a re-analysis of the deposited data

How the results depend on the processing

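No paired analysis was possible because a single array stood for each group and no test was made. For the same reason no replicate was left out. All 11 alternatives were planned. The number of member genes past the threshold was between 5 (at 3-fold) and 9 (without scaling, and with spike-in scaling), against 7. The median over the measured member genes was -1.28 with quantile normalization, -1.26 in the authors' value table, -1.43 after loess, -1.19 with normexp background correction, -2.14 without scaling and -2.31 with spike-in scaling, against -1.13. Pathway genes and T lineage factors at least 2-fold lower numbered 42 and 22 without scaling and 44 and 24 with spike-in scaling, against 22 and 13. Without scaling 40.0% of the 18851 genes well above background on the control array were lower as well. That share is not given for spike-in scaling. With the more lenient detection flag 0 members went undetected on the NYT array, against 2. Over the 95 single-gene values from the alternatives 0 changed sign. The 3-fold threshold and the changes of the detection rule left these values as they were, so they are no check on the sign. The cause was not tested, except that scaling adds the same amount to every gene. Signal over background left Cd247 and Cd8b1 with bounds only. Of 10 spike-in RNAs 8 were measured, and unscaled they differed by -0.12 to 0.24 apart from 1 at 2.25. Per the headers, the spike-in slope of the control array was 0.942 and that of the NYT array 0.831.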
